A study of Mus musculus with 21 samples.

Results

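The interleukin-1 family and inflammasome genes described here were 10 genes chosen by their names and roles. They were the ligands Il1a, Il1b and Il18, the receptor antagonist Il1rn, the decoy receptor Il1r2, the signalling receptor Il1r1 with its accessory chain Il1rap, and the inflammasome genes Nlrp3, Casp1 and Gsdmd. These are 10 of 54123 annotated genes, of which 46370 had at least 1 read. For each gene, the estimated reads of its transcripts in both files of a library were added.

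IL-1α and IL-1β bind IL1R1, which recruits IL1RAP and signals through MyD88 to NF-κB. IL-1 receptor antagonist, the product of Il1rn, occupies IL1R1 without signalling, and IL1R2 binds the same ligands but lacks a signalling domain. NLRP3 is a sensor that assembles an inflammasome with caspase-1, which cleaves the precursors of IL-1β and IL-18 and also gasdermin D, whose fragment forms membrane pores. Neutrophils are a known source of IL-1β and of IL1R2, and the activity of the inflammasome is set by cleavage of proteins that transcript levels do not measure.

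RNA-Seq was performed on polymorphonuclear neutrophils (PMNs), labelled as taken from blood, and on renal tubular epithelial cells (TECs) of wildtype male C57BL/6 mice aged 8 to 12 weeks. The cells were isolated 24 hours after sham surgery or after renal ischemia-reperfusion injury (IRI), that is, clamping of the renal pedicles during 32 minutes. Remote ischemic preconditioning (RIPC), which was 3 inflations of a hind-limb cuff for 5 minutes each, was applied 15 minutes before surgery, and in control mice the cuff was inflated without stopping limb blood flow. The 21 libraries fell into 8 groups. For PMNs these were sham control (n = 2), sham with RIPC (n = 3), IRI control (n = 2) and IRI with RIPC (n = 3). For TECs these were sham control (n = 3), sham with RIPC (n = 3), IRI control (n = 2) and IRI with RIPC (n = 3). The TECs were drawn from digested kidney with prominin-1 beads, which favours proximal tubule. A transcript level in such bulk samples cannot tell apart fewer cells of a type from less RNA per cell. The libraries are described as biological replicates, but no label ties a library to an animal, so the p-values measure the spread between these libraries.

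Each library held between 20881334 and 30507235 estimated reads in PMNs and between 21479605 and 51624602 in TECs. Levels are given as CPM, the reads of a gene relative to the effective size of its own library. The effective size is the library size scaled by a factor (TMM) that was estimated over all 21 libraries. The upper limit for a gene without reads was set at 3 reads. They correspond to 0.117 to 0.156 CPM in PMNs and 0.0748 to 0.139 CPM in TECs. These limits cover counting error only, since reads amplified by PCR without molecular identifiers are not independent molecules. The neutrophil list of 10 markers summed to 6042 to 26235 CPM in sham PMNs, 11570 to 32261 CPM in IRI PMNs and 1.62 to 89.3 CPM in TECs, and no marker of this list was at or under 3 reads in every PMN library. Markers of other cells were present in the PMN libraries, and some lists differed with surgery. The list of 10 monocyte and macrophage markers summed to 3198 to 9539 CPM in the 5 sham PMN libraries and 825 to 2019 CPM in the 5 IRI PMN libraries, with C1qa at 930 to 2450 CPM and at 70.6 to 389 CPM. Not every marker of the list followed this sum, since Csf1r overlapped at 103 to 720 CPM and at 190 to 443 CPM. The list of 10 proximal tubule markers summed to 337 to 3491 CPM in sham PMNs and 221 to 351 CPM in IRI PMNs, and to 1006 to 12339 CPM in TECs. Among sham PMN libraries, replicate 2 of the control group held the most tubule RNA (8 distal tubule and collecting duct markers at 7440 CPM), and replicate 1 of that group had the highest Il1r2. Replicate 2 of the sham control TECs had the fewest genes above 3 reads (12712). For PMNs against TECs and for IRI against sham surgery in PMNs, calls of members that changed without 1 of these libraries are named. The ratios to Il1b, the shares of transcripts and the correlations with Il1b are given only with all PMN libraries.

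**Figure D1:**
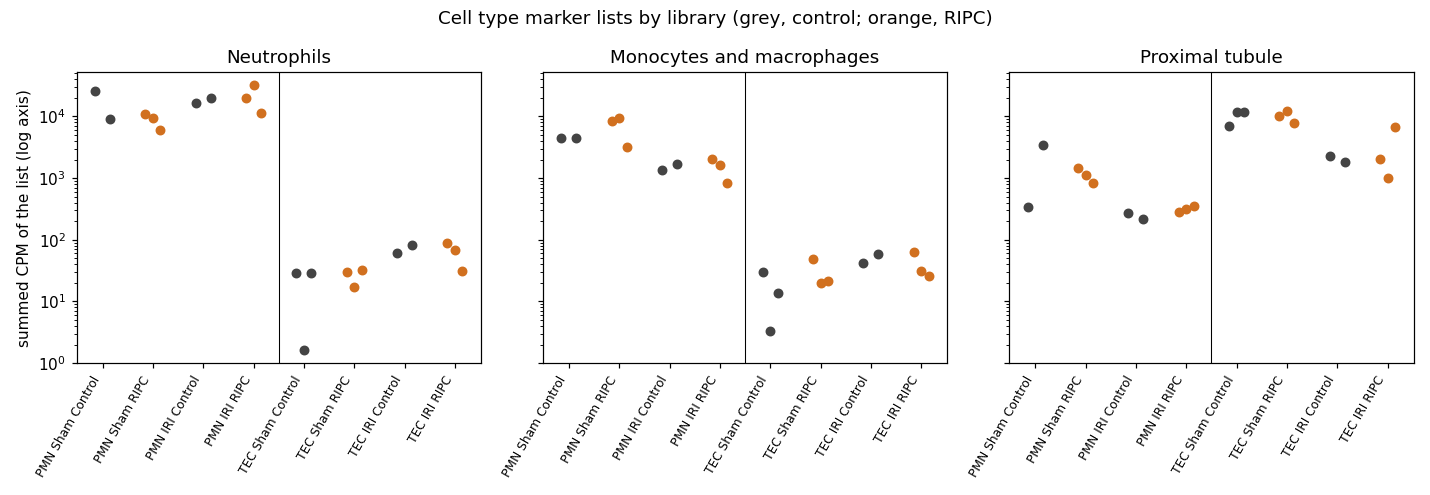
Summed CPM (log axis) of the marker lists for neutrophils, monocytes and macrophages, and proximal tubule in each library of the 8 groups, with 1 point per library. Sham PMN libraries lie between 3198 and 9539 CPM for macrophage markers and IRI PMN libraries between 825 and 2019 CPM.

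Il1a and Il1b are neighbours on chromosome 2 (GRCm38), both on the minus strand, at chr2:129299610-129309972 and chr2:129364570-129371139, with 54.6 kb between them. Il1rn lies on the plus strand of the same chromosome (chr2:24336853-24351494) and has an upstream and a downstream group of transcript starts. Il1r2 (chr1:40074079-40125231) and Il1r1 (chr1:40225080-40317257) are neighbours on chromosome 1 with 99.8 kb between them. The 250 bases before the transcript starts of Il1b, Il1a and Il1rn are shown because their transcripts were measured at very different levels in the same PMN libraries. The sequences are those of RefSeq for GRCm38.p6, on the strand of the gene, where 9 of the 10 genes had an entry. Both strands were searched for 5 motifs and capitals mark each match. The motif for the myeloid factor PU.1 was spelled GAGGAA. That for factors of the C/EBP family, which act in granulocytes, was spelled TTGCNNAA. The AP-1 motif was spelled TGANTCA. For the TATA element of the core promoter the letters were TATAAA. A loose pattern for NF-κB was spelled GGGNNNNNCC. No match in these 4 windows overlapped another.
Il1b, chr2:129371140-129371389: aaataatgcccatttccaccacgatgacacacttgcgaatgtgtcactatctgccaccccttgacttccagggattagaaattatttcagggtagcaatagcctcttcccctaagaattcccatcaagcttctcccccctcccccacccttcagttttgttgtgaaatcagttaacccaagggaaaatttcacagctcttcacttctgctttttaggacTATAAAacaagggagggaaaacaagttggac
Il1a, chr2:129309973-129310222: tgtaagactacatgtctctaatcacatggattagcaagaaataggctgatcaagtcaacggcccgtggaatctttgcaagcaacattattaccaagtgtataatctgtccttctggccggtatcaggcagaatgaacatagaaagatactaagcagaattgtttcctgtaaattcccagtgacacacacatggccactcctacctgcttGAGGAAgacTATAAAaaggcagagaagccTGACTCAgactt
Il1rn upstream start, chr2:24336610-24336859: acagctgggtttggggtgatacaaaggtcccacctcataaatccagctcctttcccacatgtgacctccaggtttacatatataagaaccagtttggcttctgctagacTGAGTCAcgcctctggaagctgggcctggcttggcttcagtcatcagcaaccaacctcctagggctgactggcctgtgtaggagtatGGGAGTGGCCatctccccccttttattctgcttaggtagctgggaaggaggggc
Il1rn downstream start, chr2:24345041-24345290: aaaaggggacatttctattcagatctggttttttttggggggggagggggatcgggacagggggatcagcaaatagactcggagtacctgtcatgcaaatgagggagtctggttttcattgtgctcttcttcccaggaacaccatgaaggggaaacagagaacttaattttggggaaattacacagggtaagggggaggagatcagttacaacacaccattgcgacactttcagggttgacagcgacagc

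The TATA element of Il1b lay 31 bases before the start and that of Il1a 32 bases before it, and 12.4% of 32851 promoter windows of the same length hold these letters. The AP-1 match of Il1a lay 12 bases before the start and that of the upstream Il1rn start 141 bases before it, with such a match in 6.75% of all windows. The PU.1 letters, found before Il1a, were in 23.3% of windows, those of C/EBP in 9.56% and the NF-κB pattern, found before the upstream Il1rn start and before one of the downstream starts, in 45.8%. None of these letters was in the window shown for the downstream Il1rn start. RefSeq has a further downstream start of Il1rn, whose window (chr2:24345121-24345370) overlaps the one shown and holds a match to the NF-κB pattern 51 bases before that start. These matches are descriptions of the letters and not measured binding.

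PMNs held far more RNA of most members than TECs. In the fit to all 21 libraries, 8 of the 10 members were higher in PMNs with an adjusted p under 0.05 by the quasi-likelihood test of edgeR (Benjamini-Hochberg over 31769 genes), and none was lower. Of all genes tested, 6.87% passed in either direction and 2.91% were higher in PMNs. The level of 3 members, Il1b, Il1rn and Il1r2, was higher in every PMN library than in every TEC library, a pattern of 0.818% of the genes tested. The median log2 difference of the members was 7.95, beside -0.02 over all genes. PMNs and TECs were isolated in different ways, so cell type and isolation cannot be told apart here.

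The largest differences were those of Il1r2 (log2 fold change 10.98, SE 1.24, adjusted p = 7.81e-06) and Il1b (10.91, SE 1.18, adjusted p = 4.44e-06). Casp1 was read in 8 of 10 PMN libraries and in 1 of 11 TEC libraries, replicate 1 of the sham controls, with 32 reads, and its fitted log2 difference was 10.09 (SE 2.0, adjusted p = 0.00499). All other TEC groups were at 0, so the size of this difference is not firm. Over the 29 alternative fits it lay between 7.23 and 20.38. Il1a, Nlrp3, Gsdmd, Il18 and Il1r1 each had a TEC group at 0 in every library too, which limits the sizes given for them. Il1rn differed by 8.84 (SE 1.05, adjusted p = 1.49e-05) and Il1a by 8.22 (SE 1.59, adjusted p = 0.00255). The sensor Nlrp3 differed by 7.69 (SE 1.62, adjusted p = 0.0049), the pore gene Gsdmd by 6.06 (SE 1.65, adjusted p = 0.0307) and the receptor chain Il1rap by 4.40 (SE 1.22, adjusted p = 0.0318). Il18 (5.15, SE 1.56, adjusted p = 0.0545) and the signalling receptor Il1r1 (1.91, SE 1.51, adjusted p = 0.679) did not pass. With DESeq2's Wald test all 10 members passed, and Il18 also passed with either file alone and without the filter on low counts. The mean of Il1r1 was 3.46 CPM in PMNs and 5.14 CPM in TECs, against the sign of its fitted difference, so no direction is given for it. Without replicate 1 of the sham control PMNs, 6 members passed, with Nlrp3, Casp1 and Gsdmd lost and Il18 gained, and without replicate 2 of the sham control TECs, 6 passed, with Il1rap and Gsdmd lost. Casp1 was lost without replicate 1 of the IRI control PMNs, and Il1rap without replicate 2 of the sham TECs with RIPC or replicate 2 of the IRI control TECs. Il18 passed without replicate 1 or replicate 2 of the sham PMNs with RIPC or replicate 2 of the IRI TECs with RIPC. Il1a, Il1b, Il1rn and Il1r2 passed in each of the 21 fits that left out 1 library.

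On a scale per transcript length (TPM, which divides reads by the effective length of each transcript), the members differed widely in level in PMNs. After IRI the highest were Il1r2 (3111 to 4577 TPM, median 3393) and Il1b (1749 to 5139 TPM, median 2725), whose ranges overlapped. Il1rn followed at 164 to 353 TPM and Il1a at 36.0 to 117 TPM, and these ranges overlapped neither each other nor those above. Gsdmd (13.2 to 66.7 TPM), Il1rap (24.4 to 46.8 TPM), Nlrp3 (3.95 to 36.1 TPM) and Casp1 (0 to 27.5 TPM) overlapped one another, and the highest libraries of the first 3 reached the range of Il1a. Il18 (0.318 to 18.4 TPM) overlapped Gsdmd, Nlrp3 and Casp1, and Il1r1, at 0 to 1.23 TPM, overlapped the lowest libraries of Il18 and Casp1. After sham surgery, Il1b (520 to 871 TPM, median 696) had the highest median and Il1r2 a median of 241 TPM, with 1 library at 1257 TPM.

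**Figure D2:**
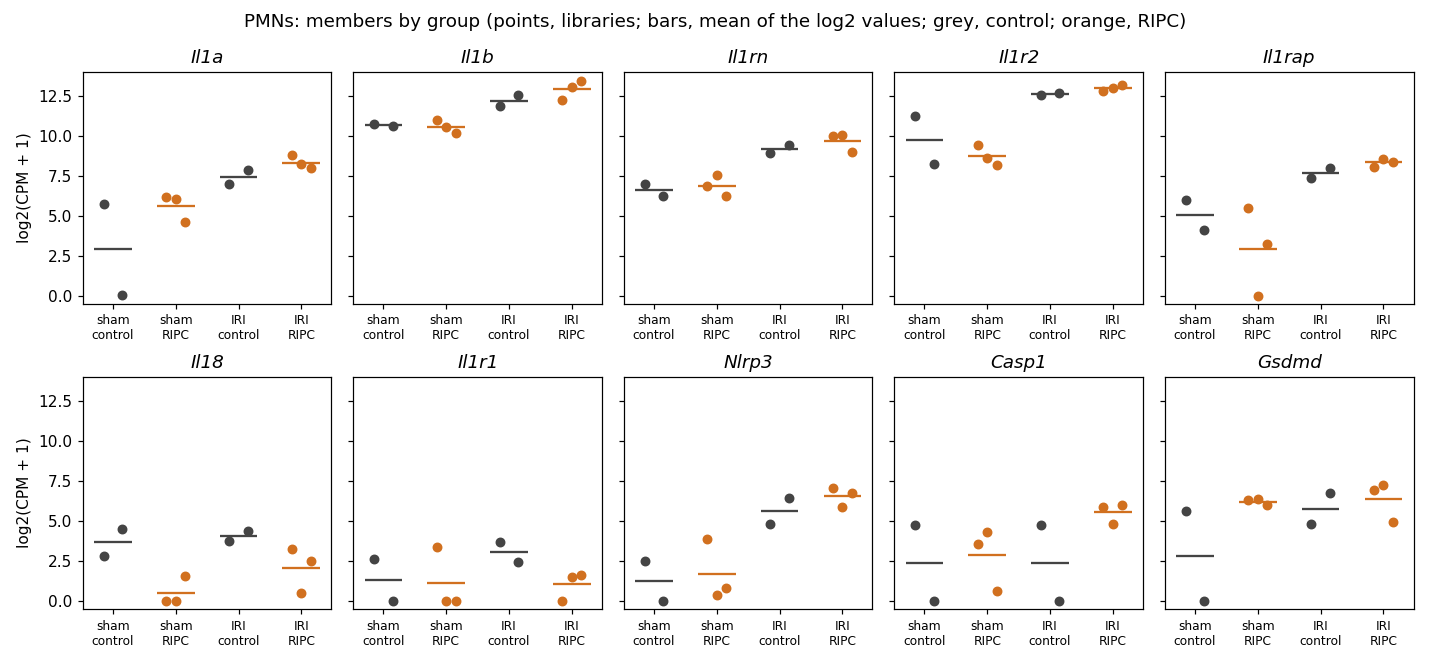
Levels of the 10 members in PMNs as log2(CPM + 1) in the 4 groups, with 1 point per library and a bar at the mean of the log2 values. For Il1b, the 5 IRI libraries lie between 3674 and 11214 CPM and the 5 sham libraries between 1158 and 2019 CPM.

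After IRI, PMNs held more transcript of the ligand Il1b and of both genes whose products restrain it. By the quasi-likelihood test of edgeR, 3 of the 10 members passed an adjusted p under 0.05 for IRI against sham surgery (the mean of the RIPC and control groups on each side), and all 3 were higher after IRI. Of 25002 genes tested, 0.416% passed and 0.364% were higher after IRI. In 6 members, Il1a, Il1b, Il1rn, Il1r2, Il1rap and Nlrp3, every IRI library lay above every sham library, a pattern shown by 3.47% of genes tested. The fitted log2 difference was above 0 in all 10 members, with a median of 2.32, beside -0.01 over all genes. The neutrophil markers had a median sum of 20012 CPM in the IRI PMN libraries and 9324 CPM in the sham PMN libraries. Macrophage markers, given above, summed lower in the same IRI libraries. Proximal tubule markers had a median sum of 286 CPM there and 1135 CPM in sham PMNs, but the libraries overlapped. The list of 6 tubular injury markers went the other way, with 1596 to 7072 CPM in IRI PMNs and 460 to 1832 CPM in sham PMNs. The part of these marker lists in the differences was not tested.

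Il1b, the ligand, was measured at 1705 and 1536 CPM in the sham control PMNs, at 2019, 1521 and 1158 CPM in sham PMNs with RIPC, at 3674 and 6034 CPM in IRI controls, and at 4909, 8440 and 11214 CPM after IRI with RIPC. The sham libraries lay close together and every IRI library was above them. The mean was 6854 ± 3004 CPM after IRI and 1588 ± 313 CPM after sham surgery (SD, n = 5 each), a log2 fold change of 1.97 (SE 0.27, 3.91-fold, edgeR adjusted p = 0.0262).

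Il1rn, which encodes the receptor antagonist, stood at 126 and 73.7 CPM in sham controls and at 113, 184 and 73.8 CPM in sham PMNs with RIPC. Its IRI levels were 493 and 691 CPM in controls and 999, 1060 and 518 CPM with RIPC. No IRI library overlapped the sham libraries. The log2 fold change was 2.66 (SE 0.38, 6.34-fold, edgeR adjusted p = 0.0294).

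Il1r2, the decoy receptor, was at 2443 and 308 CPM in sham controls and at 702, 396 and 282 CPM in sham PMNs with RIPC. It was at 6071 and 6626 CPM in IRI controls and at 7175, 8173 and 9357 CPM after IRI with RIPC. Replicate 1 of the sham controls stood apart from the other sham libraries, though below all IRI libraries. Its neutrophil markers summed to 26235 CPM, against 6042 to 10860 CPM in the other sham PMN libraries. The part of this in its Il1r2 level was not tested. The log2 fold change was 3.17 (SE 0.53, 9.0-fold, edgeR adjusted p = 0.0489), and it was 4.26 without that replicate. Il1r1, its neighbour on chromosome 1 and the receptor that signals, was at 0 in 3 of 5 sham libraries and at 0 to 11.8 CPM after IRI, and its log2 fold change was 0.21 (SE 2.29, edgeR adjusted p = 1).

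The calls depended on single libraries. Without replicate 1 of the sham controls, that group was replicate 2 alone, which held 1 read of Il1a and 0 of Gsdmd. The calls which this fit added, of Il1a and Gsdmd, rest on that library as the only sham control. Without replicate 2 of the sham controls Il1b and Il1r2 passed, without replicate 1 of sham with RIPC only Il1b, and without replicate 2 or replicate 3 of that group Il1b and Il1rn. Without replicate 1 of the IRI controls Il1b and Il1rn passed, and without replicate 2 of the IRI controls or replicate 1 of IRI with RIPC only Il1b did. Without replicate 2 or replicate 3 of IRI with RIPC 0 members passed, with the edgeR adjusted p of Il1b at most 0.0891 over the 10 fits. The log2 fold change lay between 1.80 and 2.16 for Il1b, between 2.53 and 2.92 for Il1rn and between 2.81 and 4.26 for Il1r2 in these fits. It lay between 2.25 and 7.18 for Il1a and between 3.03 and 4.36 for Il1rap. For Nlrp3 it lay between 3.96 and 8.87 and for Gsdmd between 0.31 and 7.01. In a fit of the control groups alone, with 2 libraries each, 0 members passed, and the Il1b difference was 1.55. With the replicate number as a block, 0 members passed too.

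Il1a, the ligand that is active without cleavage by caspase-1, was at 53.3 and 0.0479 CPM in sham controls, at 70.4, 64.6 and 23.1 CPM in sham PMNs with RIPC, at 126 and 234 CPM in IRI controls and at 437, 303 and 251 CPM after IRI with RIPC. Replicate 2 of the sham controls held 1 read, and the groups did not overlap. The log2 fold change was 2.69 (SE 1.15) and did not pass (edgeR adjusted p = 0.413). Il18, the other ligand that caspase-1 matures, was at 0 to 22.1 CPM after sham surgery and 0.40 to 20.1 CPM after IRI, and the groups overlapped (log2 fold change 1.5, SE 1.64, edgeR adjusted p = 0.752).

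Il1rap, the accessory chain that both IL1R1 and other receptors of the family use, was at 61.2 and 16.1 CPM in sham controls, at 44.2, 0 and 8.25 CPM in sham PMNs with RIPC, at 165 and 251.6 CPM in IRI controls and at 265, 378 and 334 CPM after IRI with RIPC. The log2 fold change was 3.31 (SE 1.32, edgeR adjusted p = 0.413). Nlrp3, the sensor, was at 4.67 and 0 CPM in sham controls, at 13.5, 0.27 and 0.73 CPM in sham PMNs with RIPC, at 26.8 and 86.3 CPM in IRI controls and at 132, 58.3 and 108 CPM after IRI with RIPC. Both genes had every IRI library above every sham library, yet neither passed, and for Nlrp3 the log2 fold change was 4.47 (SE 1.59, edgeR adjusted p = 0.381). Nlrp3 passed with DESeq2's Wald test, and both passed without the filter on low counts.

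Casp1, the protease of the inflammasome, was at 0 in replicate 2 of the sham controls and in replicate 2 of the IRI controls. It lay between 0.57 and 26.2 CPM in the other sham libraries and between 25.7 and 63.4 CPM in the other IRI libraries. Gsdmd was at 0 in replicate 2 of the sham controls, at 48.6 to 82.7 CPM in the other sham libraries and at 27.3 to 150 CPM after IRI. The groups of both genes overlapped, with log2 fold changes of 1.11 (SE 1.82, edgeR adjusted p = 0.875) and 0.93 (SE 1.26, edgeR adjusted p = 0.828). The same sham library, replicate 2 of the controls, was thus at 0 for Il1r1, Nlrp3, Casp1 and Gsdmd while it held 1536 CPM of Il1b. Of the PMN libraries it had the most tubule RNA and the fewest genes above 3 reads (15040). Its median correlation with its own cell type was also the lowest (0.438). The part of these traits in the levels at 0 was not tested.

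**Figure D3:**
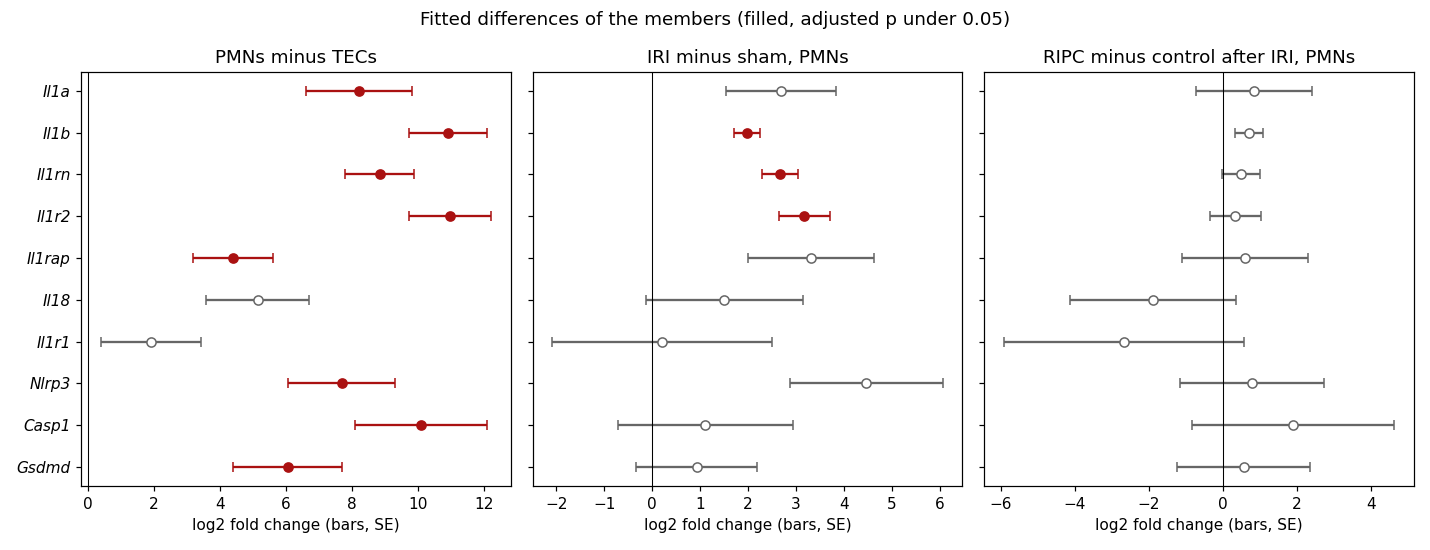
Fitted log2 fold changes of the 10 members with their SE for PMNs against TECs, IRI against sham surgery in PMNs, and RIPC against control after IRI in PMNs, with filled points where the adjusted p was under 0.05. Filled points number 8, 3 and 0 from left to right.

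The balance of transcripts within a library was also compared. The TPM of Il1rn, Il1r2 and Il1a relative to that of Il1b was computed in each PMN library and compared between IRI and sham surgery by a two-sided exact permutation test (5 libraries against 5, smallest possible p = 0.00794), with adjustment over the 3 ratios, which were chosen after the levels had been seen. Il1r2 stood at 144% and 18.4% of Il1b in sham controls, at 38.2%, 34.6% and 24.2% in sham with RIPC, at 178% and 120% in IRI controls and at 157%, 106% and 89.1% after IRI with RIPC. All libraries except replicate 1 of the sham controls were split by surgery, with 4 sham libraries at 38.2% or below and all IRI libraries at 89.1% or above. The log2 ratio was higher by 1.71 after IRI, which did not pass the adjustment (exact permutation p = 0.0317, adjusted p = 0.0952).

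Il1rn stood at 2.55% to 6.26% of Il1b after sham surgery and at 3.39% to 14.4% after IRI. The lowest IRI library was replicate 3 with RIPC, which had the highest Il1b, and the other 4 IRI libraries lay at 9.0% or above. The difference in log2 ratio was 0.86 (exact permutation p = 0.0714, adjusted p = 0.107). Il1a stood at 1.36% to 5.43% of Il1b after IRI and at up to 2.41% after sham surgery, with a difference in log2 ratio of 2.41 (exact permutation p = 0.167, adjusted p = 0.167). Replicate 2 of the sham controls, with 1 read of Il1a, had a log2 ratio of -15.8. The other sham libraries lay at -6.46 to -5.37 and the IRI libraries at -6.20 to -4.20, so the size of the difference rests on that library.

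**Figure D4:**
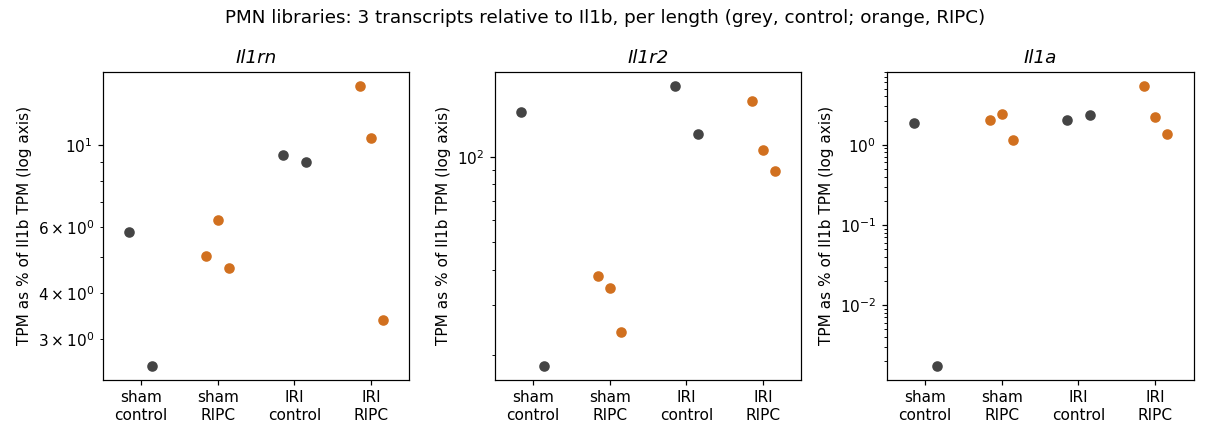
TPM of Il1rn, Il1r2 and Il1a as a percentage of the TPM of Il1b (log axes) in the 10 PMN libraries by group, with 1 point per library. For Il1r2, all 5 IRI libraries and replicate 1 of the sham controls lie at 89.1% or above and the other 4 sham libraries at 38.2% or below.

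The reads of Il1rn were divided by Salmon between transcripts of the upstream start and those of the downstream start, the promoters of which are shown above. The downstream start, from which the secreted antagonist is made, took 78.7% and 87.5% of the Il1rn reads in IRI controls and 79.8%, 86.0% and 87.3% after IRI with RIPC. In sham PMNs it took 73.1% and 43.9% in controls and 95.2%, 45.0% and 97.7% with RIPC. The IRI libraries, with at least 11558 reads each, lay within a narrow range, and the sham libraries, with 1422 to 4036 reads, lay on both sides of it. For Il1rap, the shorter transcript Il1rap-206 took 3.99% to 16.0% of reads in the 5 IRI libraries. In sham PMNs it took 17.9% and 0% in controls and 97.0%, 0% and 0% with RIPC, where replicate 2 with RIPC had no Il1rap reads. In the IRI libraries the main transcript Il1rap-201 was read most. The division between transcripts with shared exons is an estimate from reads of 50 bases.

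RIPC was compared with the control procedure after each surgery to ask whether preconditioning altered these genes. In PMNs after IRI, 0 of 10 members passed with edgeR (0% of all genes), and 0 passed with DESeq2's Wald test or with apeglm. At an unadjusted p under 0.05 there were 0 members, beside 680 of the 25002 genes tested. Il1b averaged 8188 CPM with RIPC (n = 3) and 4854 CPM in controls (n = 2), a log2 difference of 0.71 (SE 0.38, edgeR adjusted p = 0.92), and 1 RIPC library lay between both controls. Il1rn differed by 0.50 (SE 0.51), Il1r2 by 0.33 (SE 0.69) and Nlrp3 by 0.78 (SE 1.94). The groups did not overlap in 6 members, beside 16.4% of all genes tested. Of these 6, Il1a, Il1r2, Il1rap and Casp1 were higher with RIPC in every library, and Il18 and Il1r1 were lower in every library.

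In PMNs after sham surgery 0 of 10 members passed with edgeR (0.004% of all genes, which is 1 gene), and 0 with DESeq2's Wald test or with apeglm. Il1r2 was the 1 member with an unadjusted p under 0.05, beside 1150 of the 25002 genes tested. Its mean was 460 CPM with RIPC and 1375 CPM in controls (log2 difference -1.61, SE 0.67, edgeR adjusted p = 0.705). The control mean rested on replicate 1, without which the difference was 0.52. Il1b differed by -0.08 (SE 0.37) between 1566 and 1621 CPM. The effect of RIPC after IRI was also set against its effect after sham surgery. In PMNs 0 of 10 members passed with edgeR (0% of all genes) and 0 with DESeq2's Wald test. At an unadjusted p under 0.05 there were 0 members, beside 1434 of the 25002 genes tested.

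TECs held few reads of these genes. Il1rap and Il1b were above 3 reads in 8 of 11 TEC libraries each, Il1r2 and Il1rn in 7, and the inflammasome genes in 3 or fewer. Casp1 was at 0 in 10 of 11 TEC libraries, Nlrp3 in 8, Gsdmd in 8 and Il18 in 7, each of which allows up to 0.139 CPM in that library. The highest level of any member in a TEC library was 59.2 CPM, for Il1r2 in replicate 1 of IRI with RIPC, where Il1r1 stood at 39.8 CPM and Nlrp3 at 1.46 CPM. Gsdmd reached 51.1 CPM in replicate 2 of the IRI controls, and Il1rn 29.6 CPM and Il1a 25.5 CPM in replicate 2 of IRI with RIPC. The library with the highest level differed from gene to gene.

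**Figure D5:**
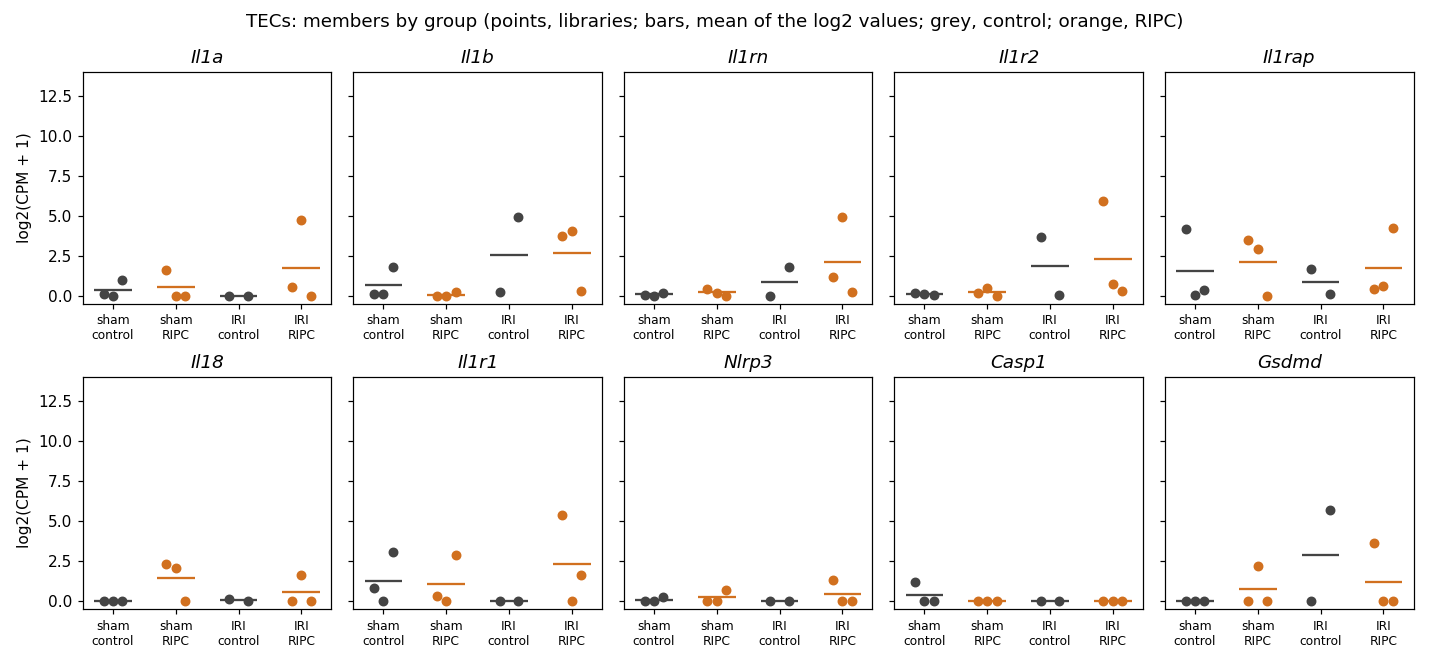
Levels of the 10 members in TECs as log2(CPM + 1) in the 4 groups, on the axis used for PMNs, with 1 point per library and a bar at the mean of the log2 values. The highest point is Il1r2 at 59.2 CPM, and Casp1 is above 0 in 1 library.

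In TECs, 9 members were tested for IRI against sham surgery, since Casp1 was filtered out for low counts, and 0 passed with edgeR, beside 1.4% of the 25917 genes tested. At an unadjusted p under 0.05 there were 4, Il1b, Il1rn, Il1r2 and Gsdmd, beside 3893 of the 25917 genes tested. With DESeq2's Wald test 2 members passed, Il1b and Il1rn. Il1b had 4, 645, 317, 361 and 5 reads in the 5 IRI libraries and at most 65 reads in the 6 sham libraries. Its log2 difference was 5.64 (SE 1.85, edgeR adjusted p = 0.179), and the groups overlapped. Without replicate 2 of the IRI control TECs, 1 member, Il1r2, passed. The 3 TEC libraries with more than 300 reads of Il1b had 12.2 to 29.5 CPM of it, and their neutrophil markers summed to 69.5 to 89.3 CPM, whereas the other TEC libraries stood at 1.62 to 61.7 CPM. Single neutrophil markers did not all follow this sum. S100a8 was at 0.83 to 25.7 CPM in IRI TECs and 0 to 2.19 CPM in sham TECs, Csf3r overlapped at 2.99 to 6.98 CPM and 0.025 to 7.03 CPM, and Ly6g was at 0 in 9 of 11 TEC libraries. Replicate 1 of the IRI controls held 16.0 CPM of S100a8 with 4 reads of Il1b, and replicate 2 of IRI with RIPC held 2.37 CPM with 361 reads. The part of neutrophil RNA in the Il1b reads of TECs was not tested.

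Il1rap was read in 5 of 6 sham TEC libraries, with 420, 2 and 8 reads in the controls and 267, 177 and 0 with RIPC. After IRI it had 54 and 2 reads in controls and 9, 13 and 379 with RIPC. The groups overlapped, with a log2 difference of -1.17 (SE 1.80, edgeR adjusted p = 0.849). Il18, known as a cytokine of the tubule, had 105 and 85 reads in sham replicates 1 and 2 with RIPC, 51 reads in replicate 2 of IRI with RIPC and 2 or fewer in the other 8 libraries. Its mean was 0.447 CPM after IRI and 1.20 CPM after sham surgery, while the fitted log2 difference, which averages the groups on the log scale, had the opposite sign (0.75, SE 0.96, edgeR adjusted p = 0.798), so no direction is given. The fitted sign was also opposite to that of the means for Il1a, Il1r1 and Nlrp3 in this comparison, none of which passed.

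RIPC did not change a member of TECs past the threshold. After sham surgery 0 of 9 members passed with edgeR (0% of all genes) and 0 with DESeq2's Wald test or with apeglm. At an unadjusted p under 0.05 there was 1, Il18, beside 1175 of the 25917 genes tested. Its mean with RIPC was at least 19.4-fold above the limit of 3 reads per library that the controls, all at 0, allow, but 1 of 3 RIPC libraries was at 0 too. After IRI 0 of 9 passed with edgeR (0.00386% of all genes, which is 1 gene) and 0 with DESeq2's Wald test or with apeglm. At an unadjusted p under 0.05 there was 1, Il1r1, beside 1128 of the 25917 genes tested. Il1r1 was at 0 in both controls and had 1034, 0 and 45 reads with RIPC. For the effect of RIPC after IRI against that after sham surgery, 0 of 9 members passed in TECs with edgeR (0% of all genes). With DESeq2's Wald test 0 passed. At an unadjusted p under 0.05 there was 1 member, beside 1869 of the 25917 genes tested.

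Whether IRI changed the members differently in PMNs and TECs was tested as an interaction. With edgeR, 0 of 10 members passed (0% of all genes). At an unadjusted p under 0.05 there were 3, Il1b, Nlrp3 and Gsdmd, beside 3102 of the 31769 genes tested. With DESeq2's Wald test 3 members passed, Il1r1, Casp1 and Gsdmd. For Il1b the log2 difference of IRI against sham surgery in PMNs minus that in TECs was -3.68 (SE 1.5, edgeR adjusted p = 0.403). The TEC values rest on few reads, and Casp1 had no IRI TEC library above 0, so its interaction has no usable value.

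The wider pathway was read from 4 lists of 53 genes in all. In PMNs against TECs, 14 of 52 tested genes were higher in PMNs and 0 were lower, beside 926 and 1256 of all 31769 genes tested. These 14 were 2 of 11 other family ligands and receptors, 5 of 14 genes of IL-1 receptor signalling, 7 of 20 inflammasome genes and 0 of 7 proteases and inhibitors, where 1 had an unadjusted p under 0.05. The 5 with the smallest adjusted p were Nfkbia, the inhibitor of NF-κB, at a log2 difference of 3.92 (SE 0.36), Pycard, the adaptor between sensor and caspase-1, at 7.24 (SE 0.89), Pstpip1, which binds pyrin, at 6.99 (SE 1.17), Il1f9, which encodes IL-36γ, at 4.08 (SE 0.71), and Nfkbiz, a nuclear IκB protein, at 2.45 (SE 0.44).

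After IRI in PMNs, 3 of 51 tested genes of these lists passed and all were higher, beside 0.416% of all genes that passed and 0.364% that were higher. The median log2 difference over the 51 genes was 1.72, beside -0.01 over all genes. Ninj1, which encodes the protein that ruptures the membrane of dying cells, was at 34.5 to 105 CPM after sham surgery and 292 to 737 CPM after IRI, and its log2 fold change was 2.57 (SE 0.31, edgeR adjusted p = 0.018). Nfkbia was at 321 to 1124 CPM and at 2066 to 4485 CPM (2.23, SE 0.37, edgeR adjusted p = 0.0484). The groups of neither gene overlapped. Nlrp12, an NLR gene of myeloid cells, was at 0.41 to 123 CPM and at 50.2 to 113 CPM, so the groups overlapped although the fit called it (3.61, SE 0.59, edgeR adjusted p = 0.0468). Its call was lost in each of the 10 fits that left out 1 library, with adjusted p-values from 0.0554 to 0.171. In those fits edgeR gave adjusted p-values up to 0.118 for Nfkbia, which passed only without replicate 1 or replicate 2 of the sham controls. Ninj1 was lost without replicate 2 of the sham controls, replicate 2 of the IRI controls or any of the 3 replicates of IRI with RIPC, with adjusted p-values up to 0.0778.

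After IRI in TECs, 0 of 48 tested genes of the lists were higher and 2 were lower, beside 66 and 297 of all 25917 genes tested. Nlrp6, an NLR gene of epithelia, was at 26.8 to 170 CPM in the 6 sham libraries and at 0 to 3.35 CPM in the 5 IRI libraries, which did not overlap. Its log2 fold change was -10.03 (SE 1.22, edgeR adjusted p = 0.00264), and it passed in each of the 11 fits that left out 1 library. Proximal tubule markers were lower in the same IRI libraries, at 1006 to 6836 CPM against 6970 to 12339 CPM, and their part in the difference of Nlrp6 was not tested. Tab1, which encodes a partner of the kinase TAK1, was at 0.76 to 39.8 CPM and at 0 to 2.03 CPM (-8.09, SE 1.75, edgeR adjusted p = 0.041), with overlap, and it passed in 3 of the 11 fits, those without replicate 2 of sham with RIPC or replicate 2 or replicate 3 of IRI with RIPC. For RIPC against control, 0 of the genes tested in these lists passed with edgeR in either cell type after either surgery. At an unadjusted p under 0.05 there were 0 to 5, beside 680 to 1175 of all genes tested.

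The genes whose log2(CPM + 1) followed Il1b most closely over the 10 PMN libraries, out of 24992 ranked, were Btg1 (r = 0.984), A230056P14Rik (0.972), Raver1 (0.971), Bms1 (0.97) and Cxcl2 (0.967), as a description with no test. All 10 libraries share the split by surgery, and the values of the 5 genes did not overlap between IRI and sham. A230056P14Rik was at 0 to 0.09 CPM after sham surgery and 0.64 to 1.48 CPM after IRI. It was above 3 reads in 5 of the 10 libraries, Bms1 in 6 and Raver1 in 7, so the likeness of these genes rests partly on libraries near 0. Cxcl2, a neutrophil chemokine, was at 332 to 727 CPM after sham surgery and 3268 to 6283 CPM after IRI, and Btg1 was at 165 to 306 CPM and 792 to 1599 CPM. Among the members, the correlation with Il1b was 0.906 for Nlrp3, 0.902 for Il1r2, 0.888 for Il1rn, 0.828 for Il1rap, 0.71 for Il1a and 0.433 or lower for the other 4. For Il18 over the 11 TEC libraries the 5 closest of 25908 genes were AC169506.3, Spo11, Ms4a14, 4921524L21Rik and Gm13357 (r from 0.955 to 0.978), each above 3 reads in 3 or 4 libraries, so the likeness rests on the 3 libraries in which Il18 was above 3 reads.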

How the data were processed

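RNA from sorted cells was copied from the poly(A) tail, amplified, and sequenced as single-end reads of 50 bases. Per the labels and the methods, the authors trimmed reads with Trim Galore 0.6.4 and quantified them with Salmon 1.0.0 against a Gencode mouse transcriptome, and they deposited estimated counts (expected counts, not normalized) and effective lengths of transcripts, 2 files per library. What separates the 2 files is not given in the sources used here. Their estimated counts differed by 0.0213 to 0.0904 of the variance that independent sampling would give (genes with at least 200 reads), so the 2 files were not independent samplings and limits from the added counts are too narrow.

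Transcripts were assigned to genes with Gencode M21 (GRCm38, the build the labels name as mm10), which matched 139864 of 140748. Transcripts without a match held 0.139% to 0.255% of reads. Counts were summed per gene over both files and rounded. TPM values were recomputed from the added counts and the deposited effective lengths. Sex-chromosome and mitochondrial genes were left out, as in the study.

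The main test was edgeR 4.0.16's quasi-likelihood F test (R 4.3.3, limma 3.58.1) with filterByExpr, TMM and a mean per group, fitted within each cell type, or to all 21 for comparisons across cell types. Adjusted p-values are Benjamini-Hochberg over all genes tested, with a threshold of 0.05. Exact permutation tests used scipy 1.17.1. The alternatives were DESeq2 1.42.0 (Wald test, size factors, and apeglm 1.24.0 with s values under 0.01), no filter, all chromosomes, a length offset, each file alone, the compared groups alone, the replicate number as a block, and each library left out. Named genes were the members, called genes of 4 pathway lists (up to 5 per direction and comparison by adjusted p) and the 5 genes most like Il1b or Il18. Members, lists and tests were chosen with earlier results of these data known.

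The test was tested on simulated data. At the estimated dispersions it recovered 19.5% of the changed genes in PMNs and 46.5% in TECs, so it missed most of them in both. False calls were 4.88% of its calls in PMNs and 32.1% in TECs, which is more in TECs than the threshold allows. TEC calls are thus less certain than their adjusted p-values say, and few calls in either cell type do not mean few changes. Of the unchanged genes, a fraction of 0.0765 in PMNs and 0.0788 in TECs had an unadjusted p under 0.05. With dispersions set well below the estimates, 84.5% of the changed genes were recovered in PMNs and 92.0% in TECs. False calls were then 3.43% and 4.17% of the calls. The ratios to Il1b, the shares of transcripts and the motif search were chosen after the levels had been seen.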

Additional observations from a re-analysis of the deposited data

How the results depend on the processing

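Beyond leaving out 1 library, the number of members that passed was within 1.5 times the main number except as follows. For IRI against sham surgery in PMNs (3 members), 6 passed without a filter and 0 with the control groups alone. In TECs (0), 3 passed without a filter and 2 with DESeq2's Wald test, and for surgery by cell type (0), 4 and 3. Without a filter, 1 passed for RIPC after sham surgery in PMNs and 1 for RIPC by surgery in PMNs. Over all genes, the counts without a filter were 971 for IRI against sham surgery in PMNs (main 104), 1289 in TECs (363), 139 for RIPC after sham surgery in PMNs (1), 18 for RIPC after IRI in PMNs (0), 54 and 71 in TECs (0 and 1), 722 for surgery by cell type (0), and 101 and 84 for RIPC by surgery in PMNs and TECs (0). With DESeq2's Wald test they were 5389 for PMNs against TECs (2182), and 1942, 2234, 817, 426, 430, 701, 2395, 657 and 600 in the order of the comparisons just given. With apeglm, 528, 39, 62 and 248 genes passed for the 4 comparisons of RIPC. With the compared groups alone, 0 genes passed for IRI against sham surgery in either cell type, and 0 for RIPC after sham surgery in PMNs and after IRI in TECs. The first file alone gave 2 genes for RIPC after IRI in TECs and 1 for surgery by cell type, and the second file alone gave 1 there and 0 for RIPC after sham surgery in PMNs. The cause of these changes was not tested.

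The replicate number as a block left 0 of 10 members for IRI against sham surgery in PMNs, with 23 genes in all, 0 genes for RIPC after sham surgery in PMNs and 3 for RIPC after IRI in TECs. Deviations from the group mean of libraries with the same number had correlations of -0.02 to 0.03 in PMNs and -0.10 to 0.14 in TECs. With different numbers they were -0.03 to 0.03 and -0.12 to 0.07. In a group of 2 libraries the deviations mirror each other, and PMN libraries were not compared with TEC libraries. These values therefore cannot exclude that the numbers pair the libraries. The block was not used for the main results. Under the block the log2 difference reversed for Nlrp3 in TECs after IRI (1.26), Casp1 with RIPC after sham surgery in PMNs (3.82), Nlrp3 with RIPC after IRI in PMNs (-0.12), Il1a (-0.78) and Il1rap (2.52) with RIPC after sham surgery in TECs, and Il1b (0.14) and Gsdmd (2.43) with RIPC after IRI in TECs. Other reversals were Casp1 for IRI against sham surgery in PMNs with the control groups alone (-0.0046), and, with RIPC after sham surgery in TECs, Il1a with the first file (-0.074), Il1rap with the compared groups alone (0.0079) and Il1r1 with the length offset (0.062). All of these had an adjusted p of 1.

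Leaving out 1 library at a time moved the members that passed between 0 and 5 for IRI against sham surgery in PMNs and between 0 and 1 in TECs. All genes that passed ranged from 13 to 393 and from 92 to 714, from 0 to 11 for RIPC after sham surgery in PMNs, from 0 to 6 and from 0 to 22 for RIPC after sham surgery and after IRI in TECs, from 0 to 124 for surgery by cell type and from 0 to 15 for RIPC by surgery in TECs. Log2 differences that changed sign in at least 1 such fit ranged as follows. For PMNs against TECs, Il1r1 ranged from -0.40 to 2.87. For IRI against sham surgery in PMNs, Il1r1 ranged from -0.24 to 4.79 and Casp1 from -4.47 to 6.73, and in TECs Il1a from -3.88 to 2.33, Il1rap from -2.98 to 1.35, Il18 from -2.89 to 1.23 and Nlrp3 from -1.59 to 0.59. For RIPC after sham surgery in PMNs, Il1a ranged from -0.0053 to 9.90, Il1b from -0.30 to 0.11, Il1rn from -0.092 to 0.69, Il1r2 from -2.40 to 0.52, Il1rap from -3.29 to 0.039, Il1r1 from -8.90 to 9.10, Nlrp3 from -2.26 to 9.73 and Casp1 from -1.36 to 10.84, and after IRI Gsdmd from -0.10 to 1.86. For RIPC after sham surgery in TECs, Il1a ranged from -6.19 to 3.92, Il1r2 from -0.21 to 1.53, Il1rap from -0.81 to 4.94 and Il1r1 from -4.27 to 2.58. For RIPC after IRI in TECs, Il1b ranged from -1.67 to 5.88, Il1rn from -0.81 to 11.15, Il1r2 from -3.66 to 8.58, Il1rap from -1.23 to 5.97, Il18 from -3.20 to 7.27 and Gsdmd from -12.35 to 9.52. For surgery by cell type, Il1rn ranged from -3.06 to 1.66, Il1r2 from -3.67 to 0.35, Casp1 from -1.31 to 10.01 and Gsdmd from -9.91 to 0.21.

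Scaling by the size factors of DESeq2 reversed no member and moved the median over all genes by 0.13 for IRI against sham surgery in TECs and by 0.11 for RIPC by surgery in TECs. Groups held 2 or 3 libraries, and the part of depth in the results was not tested. In TECs, members read in 1 library and at 0 in the next gave no stable difference.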
